A study of Bos taurus with 6 samples.

Results

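A set of 9 genes was followed whose products write, recruit or read methylation of lysine 9 of histone H3 (H3K9), the chromatin mark of silent DNA: the methyltransferases SETDB1, SUV39H1, SUV39H2, EHMT1 and EHMT2, the corepressor TRIM28, and the heterochromatin protein 1 (HP1) genes CBX1, CBX3 and CBX5. They were taken by gene symbol, and all 9 had a row in every library, of 13295 symbols that did. The samples were single bovine morulae made by in vitro fertilization and collected on day 6. The 3 MAT2A-inhibited morulae were cultured in 20 µM FIDAS-5 between 72 h and 144 h after insemination, starting at 8 to 16 cells. The 3 Control morulae were given 0.1% DMSO, the vehicle, over the same time. All were kept at 5% oxygen, and no DMSO content is given for the treated embryos. Each library was made from polyA RNA of 1 embryo with a full-length kit for low input. FIDAS-5 inhibits MAT2A, the enzyme that makes S-adenosylmethionine, and the comparison asked how the transcriptome differed after that block.

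S-adenosylmethionine is the methyl donor of every H3K9 methyltransferase. SETDB1 trimethylates H3K9 where TRIM28, recruited to DNA by zinc finger proteins, brings it, and in early mammalian embryos this pathway silences retroviral repeats and protects imprinted regions. SUV39H1 and SUV39H2 place the same mark at pericentromeric repeats. EHMT1 and EHMT2 form a complex that places the mono- and dimethyl forms in euchromatin. CBX1, CBX3 and CBX5 encode HP1 beta, gamma and alpha, which bind methylated H3K9 and compact chromatin.

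Values are Cufflinks FPKM (fragments per kilobase of transcript, scaled to the depth of the library) as the authors deposited them. A log2 difference is that of log2(FPKM + 1), MAT2A-inhibited minus Control, and comes out too small for genes at low levels. Depth was 46500000 to 57700000 fragments in MAT2A-inhibited libraries and 53400000 to 59900000 in Control libraries. All 8 embryo markers were above 0 in every library, though at unequal levels: POU5F1 at 254.8 to 431.0 FPKM, DPPA2 at 159.0 to 315.9 and SOX2 at 27.6 to 50.8, but NANOG at 1.16 to 20.3 and CDX2 at 0.188 to 2.77 FPKM. KRT8 ran between 4.49 and 400.5 FPKM and KRT18 between 8.67 and 363.4 FPKM. DPPA3 was at 453.5 to 574.5 FPKM in MAT2A-inhibited libraries, below the 660.9 to 881.3 FPKM of Control libraries. The 5 cumulus and granulosa markers summed to between 2.56 and 2.84 FPKM in MAT2A-inhibited and 6.14 and 17.7 FPKM in Control libraries, with VIM at 0 in 4 libraries and at most 0.501 FPKM. The 3 sperm markers summed to between 5.13 and 11.5 FPKM against 2.53 to 4.79 FPKM, and 3 blood markers to between 0.799 and 1.72 FPKM against 1.40 to 3.38 FPKM. Of the blood markers, ALAS2 was at most 3.38 FPKM (Control 3), HBB 1.72 FPKM (MAT2A-inhibited 2) and PTPRC 0.00464 FPKM. MAT2A-inhibited libraries 2 and 3 held Y-linked transcripts, with EIF1AY at 38.2 and 106.9 FPKM, while the other 4 libraries listed it at 0. The part of these differences in the results was not tested. MAT2A, the inhibited enzyme, was at 71.7 ± 19.1 FPKM in MAT2A-inhibited and 76.1 ± 2.74 FPKM in Control morulae (SD, n = 3 each, exact permutation p = 0.7). In such libraries fewer cells of a type and less RNA per cell cannot be told apart. Whether the embryos of a group were cultured apart is not stated, so the p-values rest on the spread between these embryos, which may be technical.

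SETDB1 stood higher in every MAT2A-inhibited morula than in any Control morula, but did not pass the test over all genes. The gene (bosTau8 chromosome 3, 19843541 to 19875888 in Control 1) was at 13.6, 11.2 and 11.4 FPKM in MAT2A-inhibited replicates 1, 2 and 3, against 9.60, 2.17 and 3.08 FPKM in Control replicates 1, 2 and 3; values below keep this replicate order. The treated embryos lay close together, whereas Control 1 was near them and the other Control embryos were low. The values of MAT2A-inhibited 1 and 3 and of Control 1 lay above their own deposited intervals. The interval of Control 1, 7.51 to 9.22 FPKM, overlapped that of MAT2A-inhibited 3, 8.95 to 11.1 FPKM. The place of MAT2A-inhibited 3 above Control 1 is therefore uncertain. Group means were 12.1 ± 1.32 FPKM in MAT2A-inhibited and 4.95 ± 4.05 FPKM in Control morulae (SD, n = 3 each), a ratio of 2.44. The exact two-sided permutation test gave p = 0.1, the smallest that 3 embryos against 3 allow. The log2 difference was 1.34 ± 0.46 (SE), with a limma unadjusted p of 0.0213 and an adjusted p of 0.708 over 7319 tested genes. That p ranked 219 among them. Without Control 1 the log2 difference was 1.86, without Control 2 it was 0.99, and with array weights, which count deviating libraries less, it was 0.82.

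One end of SETDB1 lies on a neighbouring gene. CERS2, a ceramide synthase (chromosome 3, 19835017 to 19843638), overlaps the assembled SETDB1 span by 98 or 99 bases in 5 libraries and by 56 bases in Control 2. The kit is not stated to keep strand, so reads of the shared bases cannot be assigned to one gene. CERS2 was at 35.9, 30.2 and 37.1 FPKM in the MAT2A-inhibited morulae, against 23.5, 19.4 and 28.1 FPKM in Control morulae. It too was higher in every treated embryo, with a log2 difference of 0.53 ± 0.24 (SE, limma adjusted p = 0.750). In every library the CERS2 value lay above its own deposited interval, such as 31.8 to 34.6 FPKM in MAT2A-inhibited 1 and 24.7 to 27.1 FPKM in Control 3. The part of the shared bases in the SETDB1 values was not tested.

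**Figure D1:**
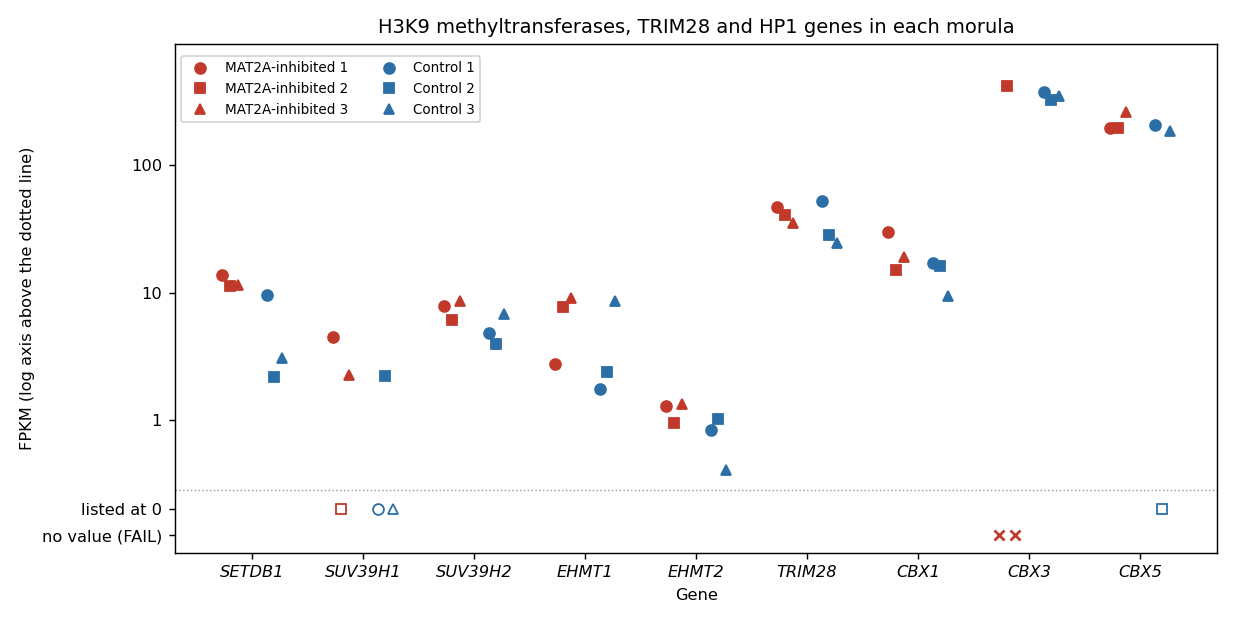
FPKM of the 9 genes in each library on a log axis, with MAT2A-inhibited morulae (red) left of Control morulae (blue) and 1 symbol shape per replicate number. Open symbols below the dotted line are values listed at 0 and crosses are rows whose estimate failed. SETDB1 is the gene of the 9 whose 3 red points, 11.2 to 13.6 FPKM, all lie above its blue points.

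TRIM28, the scaffold that brings SETDB1 to its targets, varied more within the Control group than between groups. It was at 47.2, 40.8 and 35.0 FPKM in the MAT2A-inhibited morulae, against 52.3, 28.3 and 24.4 FPKM in Control morulae (chromosome 18, 65953794 to 65960264). Control 1 was again the highest Control embryo, and the groups overlapped. Its value lies above its own deposited interval of 44.9 to 48.3 FPKM, so its place above MAT2A-inhibited 1, with an interval of 46.0 to 49.3 FPKM, is uncertain. Means were 41.0 ± 6.11 FPKM in MAT2A-inhibited and 35.0 ± 15.1 FPKM in Control morulae (SD, n = 3 each, exact permutation p = 0.6). On the log2 scale the difference was 0.29 ± 0.32 (SE, limma adjusted p = 0.852). With array weights it was -0.04, so its sign was not stable. Without Control 1 the log2 difference was 0.61.

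ATF7IP, the partner that stabilises SETDB1 and keeps it in the nucleus, lay on the opposite side. It was at 11.4, 6.16 and 9.49 FPKM in the MAT2A-inhibited morulae, against 18.0, 27.8 and 17.7 FPKM in Control morulae. Every treated embryo was below every Control embryo, as for 5.18% of the 7319 tested genes. Means were 9.0 ± 2.63 FPKM in MAT2A-inhibited and 21.2 ± 5.78 FPKM in Control morulae (SD, n = 3 each, exact permutation p = 0.1). Its log2 difference was -1.15 ± 0.32 (SE), with an unadjusted p of 0.00793 and a limma adjusted p of 0.688, so it did not pass. The deposited span of ATF7IP on chromosome 5 also differed: it began between 95800646 and 95800947 in MAT2A-inhibited and between 95796149 and 95796621 in Control libraries. It ended between 95912230 and 95912280 in all 6. FPKM is divided by transcript length, and the part of these spans in the difference was not tested. The log2 difference stayed between -1.33 and -0.93 with any 1 library left out.

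**Figure D2:**
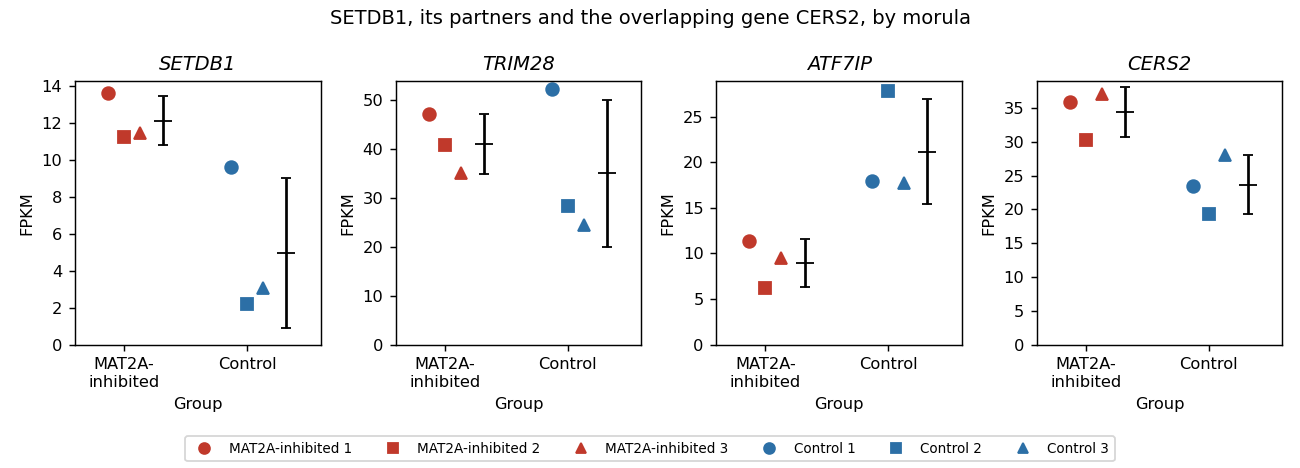
FPKM of SETDB1, TRIM28, ATF7IP and CERS2 in each morula, MAT2A-inhibited on the left and Control on the right of each panel, with 1 symbol shape per replicate number. The bar beside each group is its mean with the SD of 3 embryos. The groups do not overlap for SETDB1, ATF7IP and CERS2 but do for TRIM28, where Control 1 is at 52.3 FPKM.

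SUV39H2 and SUV39H1, the other enzymes that trimethylate H3K9, differed in how reliably they were measured. SUV39H2 (chromosome 13, 29813261 to 29837219 in Control 1) was at 7.78, 6.10 and 8.58 FPKM in the MAT2A-inhibited morulae, against 4.82, 3.93 and 6.78 FPKM in Control morulae. The groups overlapped through Control 3. The value of MAT2A-inhibited 3 lay just above its own deposited interval, which ended at 8.55 FPKM. Means were 7.49 ± 1.27 FPKM in MAT2A-inhibited and 5.18 ± 1.46 FPKM in Control morulae (SD, n = 3 each, exact permutation p = 0.2). On the log2 scale the difference was 0.47 ± 0.31 (SE, limma adjusted p = 0.795). In Control 2 its span ran on by 4310 bases into DCLRE1C, a DNA repair nuclease gene, which it did not overlap in the other libraries.

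SUV39H1, on chromosome X (91856090 to 91868996), was listed at 0 in 3 libraries. Its values were 4.49, 0 and 2.25 FPKM in MAT2A-inhibited morulae, against 0, 2.21 and 0 FPKM in Control morulae. Such a 0 may stand for an estimate that failed, so no fold change is given. The deposited upper bound was 0.025 FPKM for MAT2A-inhibited 2, and 0.0393 and 0.567 FPKM for Control 1 and 3. MAT2A-inhibited 2 and 3, at 0 and 2.25 FPKM, are the libraries with Y-linked transcripts, and the part of embryo sex in these values was not tested. SUV39H2 was above SUV39H1 in every library.

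EHMT1 and EHMT2, the partners of the mono- and dimethylating complex, were at unequal levels. EHMT1 (chromosome 11, 105429142 to 105493390 in Control 1) was at 2.75, 7.73 and 8.99 FPKM in the MAT2A-inhibited morulae, against 1.74, 2.37 and 8.55 FPKM in Control morulae. Each group held low and high embryos, with ranges of 3.26-fold in MAT2A-inhibited and 4.90-fold in Control morulae. Means were 6.49 ± 3.30 and 4.22 ± 3.76 FPKM (MAT2A-inhibited and Control, SD, n = 3 each, exact permutation p = 0.4). On the log2 scale the difference was 0.63 ± 0.58 (SE, limma adjusted p = 0.830). It was -0.25 without the 2 libraries with Y-linked transcripts, which leaves 1 treated embryo, and 1.18 without Control 3. EHMT2 (chromosome 23, 27277596 to 27291502) was at 1.28, 0.936 and 1.33 FPKM in the MAT2A-inhibited morulae, against 0.826, 1.01 and 0.405 FPKM in Control morulae. It was the lowest of the genes with a value above 0 in every library, and the groups overlapped through Control 2. Its log2 difference was 0.33 ± 0.31 (SE, limma adjusted p = 0.833, exact permutation p = 0.2). EHMT1 exceeded EHMT2 in every library, by 2.16-, 8.26- and 6.78-fold in MAT2A-inhibited and 2.11-, 2.36- and 21.1-fold in Control morulae.

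Of the HP1 genes, CBX5 and the row named CBX3 had the highest levels of the 9 where a value above 0 was given, and CBX1 stood below TRIM28. CBX1 (chromosome 19, 39032318 to 39051471), which encodes HP1 beta, was at 29.7, 15.1 and 18.9 FPKM in the MAT2A-inhibited morulae, against 17.2, 16.3 and 9.41 FPKM in Control morulae. MAT2A-inhibited 1 was high and Control 3 low, and the other 4 embryos lay between 15.1 and 18.9 FPKM. The values of MAT2A-inhibited 3, Control 2 and Control 3 lay above their own deposited intervals. Those intervals were 13.5 to 16.5, 11.2 to 13.9 and 6.41 to 8.15 FPKM, so the closeness of these 4 embryos is uncertain. Means were 21.2 ± 7.57 FPKM in MAT2A-inhibited and 14.3 ± 4.26 FPKM in Control morulae (SD, n = 3 each, exact permutation p = 0.3). On the log2 scale the difference was 0.53 ± 0.35 (SE, limma adjusted p = 0.80). It was 0.27 without MAT2A-inhibited 1 and 0.27 without Control 3.

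CBX5 (chromosome 5, 25944853 to 25971390), which encodes HP1 alpha, was at 196.0, 196.4 and 261.7 FPKM in the MAT2A-inhibited morulae, against 206.9, 0 and 184.9 FPKM in Control morulae. The 0 of Control 2 lies below its own deposited interval of 0.0178 to 0.450 FPKM, whereas the other 5 libraries reached at least 184.9 FPKM. That whole interval is also far below the other libraries, so whether the 0 is a failed estimate is uncertain. Of 4874 genes that reached 10 FPKM, 66 were at 0 in exactly 1 library, CBX5 among them. With that 0 taken as missing, the log2 difference was 0.14 ± 0.23 (SE, limma adjusted p = 0.896) over 3 MAT2A-inhibited and 2 Control embryos. With the 0 left as deposited, 1 library would set the difference.

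The row that carries the CBX3 symbol (chromosome 4, 87410384 to 87412242 in Control 1), named for HP1 gamma, gave a value in 4 libraries. It was at 424.1 FPKM in MAT2A-inhibited 2, against 378.7, 325.6 and 349.3 FPKM in Control morulae 1 to 3. In MAT2A-inhibited 1 and 3 the row has the status FAIL, so its 0 is no measurement. The upper bound in MAT2A-inhibited 2 was 7618.9 FPKM, far above the value. CBX3 was therefore left out of the test, and no difference is given.

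The place of that row also differed from the RefSeq annotation of ARS-UCD2.0, another bovine assembly used here only for neighbour order. There CBX3 stands between SNX10 and HNRNPA2B1, a splicing factor gene. In the deposited files HNRNPA2B1 lies at 70197777 to 70207087 of chromosome 4 in Control 1, which is 17203296 bases from the row named CBX3. Of 8 members with a RefSeq neighbour in the files, the other 7 had every neighbour found within 200000 bases. The row named CBX3 spans 1859 bases, and a processed copy could share reads with the gene, so its level is uncertain. Beside HNRNPA2B1 the files hold an unannotated locus (70184733 to 70188831 in Control 1). It was at 88.2, 170.0 and 133.5 FPKM in the MAT2A-inhibited morulae, against 158.9, 133.2 and 134.1 FPKM in Control morulae. The files do not annotate this locus, and whether it belongs to CBX3 was not tested.

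Across the set, 0 of the 8 tested members passed limma at an adjusted p below 0.05, where 0.041% of the 7319 tested genes did. An unadjusted p below 0.05 was found for 1 of the 8, SETDB1, against 6.64% of all tested genes, or 3.7% counting the higher ones as SETDB1 is. The 6 members with a value above 0 in every library all had a log2 difference above 0, a side that 54.2% of tested genes shared. Their median was 0.50, beside 0.04 over all tested genes. The groups did not overlap, with the treated embryos higher, for 1 of these 6, where 8.27% of tested genes did so. The median SE of a log2 difference was 0.34 over all tested genes, larger than the estimates for TRIM28 and EHMT2.

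**Figure D3:**
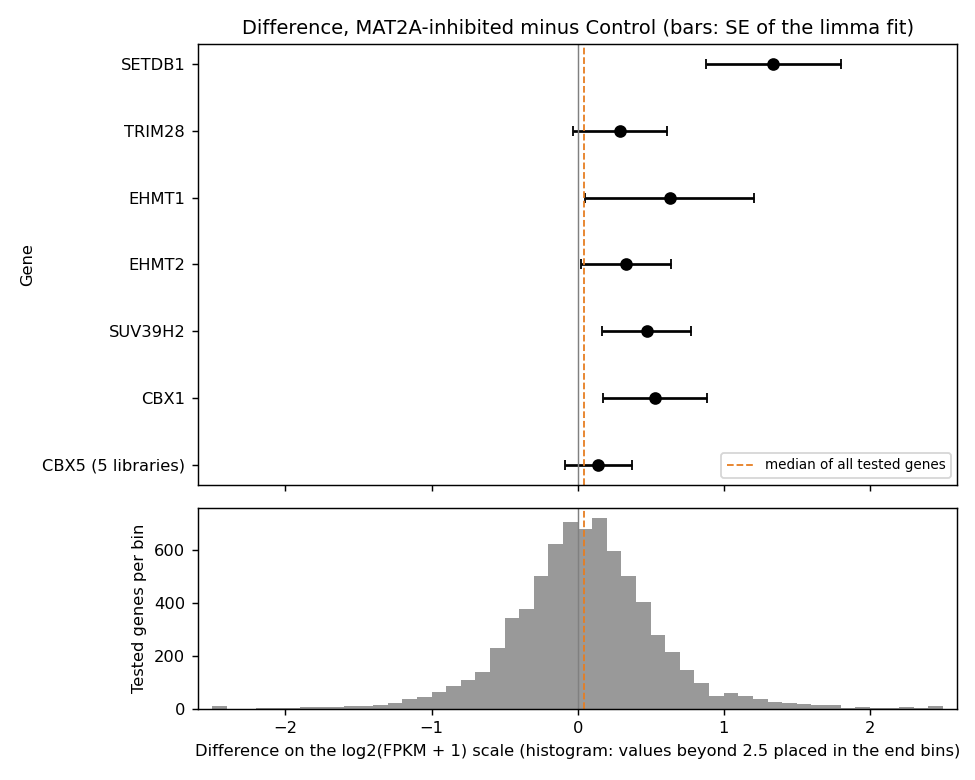
Upper panel: log2 difference with its SE for the 6 members above 0 in every library and for CBX5 without its 0, MAT2A-inhibited minus Control. Lower panel: the same difference for the 7319 tested genes as a histogram. The estimates run between 0.14 for CBX5 and 1.34 for SETDB1, and the dashed line marks the median of all tested genes at 0.04.

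Levels of the members kept much the same order in both groups. In MAT2A-inhibited morulae the order by median FPKM, high to low, was CBX3 row, CBX5, TRIM28, CBX1, SETDB1, SUV39H2, EHMT1, SUV39H1 and EHMT2, where the place of the CBX3 row rests on 1 library. In Control morulae SUV39H2 stood above SETDB1, and SUV39H1 was last. The ranges of neighbours overlapped for SUV39H2 and EHMT1, EHMT1 and SUV39H1, and SUV39H1 and EHMT2 in MAT2A-inhibited morulae. SETDB1 stood apart from SUV39H2 there, with a lowest value of 11.2 FPKM above 8.58 FPKM. In Control morulae the ranges of SUV39H2, SETDB1 and EHMT1 overlapped in turn, as did EHMT2 and SUV39H1, and the 0 of CBX5 put its range across that of TRIM28. Among tested genes the mean level of TRIM28 was at the 71.1 percentile, CBX1 at 57.2, SETDB1 at 41.0, SUV39H2 at 34.4 and EHMT1 at 30.8. EHMT2 was at the 0.936 percentile, next to the filter on low values.

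Profiles over the 6 embryos were compared with 7006 other tested genes that have no 0, by the root-mean-square difference of log2(FPKM + 1) centred on each gene's mean. Among the closest to SETDB1 were the mitochondrial dehydrogenase ALDH6A1 at 0.24 and the mitochondrial alanine aminotransferase GPT2 at 0.29, beside a median of 0.91. ALDH6A1 was at 78.8, 63.7 and 71.7 FPKM in the MAT2A-inhibited morulae, against 50.5, 12.2 and 13.7 FPKM in Control morulae. Its high Control 1, like that of SETDB1, is part of the likeness by which it was picked. The closest to TRIM28 were HSF2BP at 0.05, the ubiquitin ligase RNF185 at 0.07 and SEMA4A, a semaphorin, at 0.11, beside a median of 0.52. RNF185 ran between 0.442 and 1.77 FPKM and SEMA4A between 0.144 and 1.64 FPKM, next to the filter on low values. At such levels the 1 added to FPKM shrinks differences, so their likeness to TRIM28 is uncertain. HSF2BP was at 32.2, 28.0 and 24.4 FPKM in the MAT2A-inhibited morulae, against 36.0, 17.7 and 16.9 FPKM in Control morulae. TRIM28 stood at place 213 in likeness to SETDB1, with a difference of 0.59, and was the member nearest to it. Seen from TRIM28, the same difference of 0.59 lay above the median of 0.52 and put SETDB1 at place 4407. EHMT2 at place 648 and CBX1 at place 674 were nearer to TRIM28. EHMT2, at 0.405 to 1.33 FPKM, is as low as RNF185 and SEMA4A, so its place is uncertain too.

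Genes that act around the members were taken from 6 lists with 58 symbols, of which 28 were tested. None passed limma in either direction (0 of 28), where 0.041% of all tested genes passed. An unadjusted p below 0.05 was found for 2 of the 28, both lower, where 6.64% of all tested genes had one in either direction. Their median log2 difference was -0.06, with 13 above 0 and 15 below. The groups did not overlap for 4 of the 28, where 13.4% of all tested genes did so.

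Among SETDB1 and TRIM28 partners 5 of 10 symbols were tested, 2 above 0 and 3 below, with a median of -0.47. Beside ATF7IP, its paralogue ATF7IP2 was at 131.8, 14.2 and 55.7 FPKM in the MAT2A-inhibited morulae, against 74.4, 179.0 and 52.5 FPKM in Control morulae. ZNF445, a zinc finger protein that guards imprints in human and mouse, was at 0.0299, 1.63 and 0.0169 FPKM against 0.162, 2.07 and 1.04 FPKM in Control morulae. Neither separated the groups, with log2 differences of -0.89 ± 0.78 and -0.47 ± 0.52 (SE).

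The list of the HUSH silencing complex and other readers had 6 of 10 symbols tested, 3 above 0 and 3 below, and a median of 0.01. UHRF1 reads methylated H3K9 and hemimethylated DNA. It was at 2.25, 2.78 and 0.797 FPKM in the MAT2A-inhibited morulae, against 7.04, 5.53 and 5.29 FPKM in Control morulae. Like 5.18% of all tested genes, it was lower in every treated embryo, with a log2 difference of -1.30 ± 0.37 (SE, limma adjusted p = 0.688). With the midpoint of the deposited bounds, an alternative chosen after seeing the data, it was -0.66. MORC2, an ATPase that works with HUSH, was at 3.79, 3.39 and 3.67 FPKM in the MAT2A-inhibited morulae, against 2.96, 2.81 and 2.23 FPKM in Control morulae. Its groups did not overlap, with a log2 difference of 0.34 ± 0.28 (SE, limma adjusted p = 0.815). CDYL, a chromodomain corepressor, was at 6.09 ± 3.53 FPKM in MAT2A-inhibited and 7.30 ± 1.84 FPKM in Control morulae (SD, n = 3 each, exact permutation p = 0.7).

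HP1 partners and chromatin assembly genes gave 11 of 14 symbols tested, 7 above 0 and 4 below, with a median of 0.28, or 0.22 without SENP7, which has a 0. SENP7, a SUMO protease that binds HP1, was at 20.2, 5.97 and 8.62 FPKM in the MAT2A-inhibited morulae, against 7.96, 4.77 and 0 FPKM in Control morulae. CHAF1B, of the histone chaperone CAF-1, had means of 5.79 ± 2.67 and 3.27 ± 1.21 FPKM (MAT2A-inhibited and Control, SD, n = 3 each, exact permutation p = 0.2). LBR, the inner nuclear membrane receptor that binds HP1, had means of 14.2 ± 5.96 and 21.9 ± 7.32 FPKM (MAT2A-inhibited and Control, SD, n = 3 each, exact permutation p = 0.3). ORC1, an origin recognition subunit chosen after its values were seen, was at 16.6, 14.8 and 17.2 FPKM in the MAT2A-inhibited morulae, against 14.2, 11.6 and 12.2 FPKM in Control morulae. Those groups did not overlap, and its log2 difference was 0.33 ± 0.24 (SE, limma adjusted p = 0.807).

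The remaining lists held few tested genes. Of G9a and GLP partners and other H3K9 methyltransferases 2 of 7 symbols were tested, both below 0: ZNF644, a zinc finger partner of EHMT1 and EHMT2, at -0.45 ± 0.40 and CSNK2A1, a kinase that phosphorylates HP1, at -0.06 ± 0.25 (log2 difference, SE). SUV420H1, which methylates histone H4 at sites marked by HP1, was the 1 of 6 symbols tested in its list, at -0.30 ± 0.30. Of 11 H3K9 demethylase symbols 3 were tested: KDM4A, which removes the trimethyl form, at -0.23 ± 0.37, JMJD1C at -0.19 ± 0.32 and KDM3A, which removes the lower forms, at 0.02 ± 0.45. Their limma adjusted p ran between 0.830 for ZNF644 and 0.993 for KDM3A. The sign of the difference for KDM3A turned with median-of-ratios scaling and with quantile normalization.

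**Figure D4:**
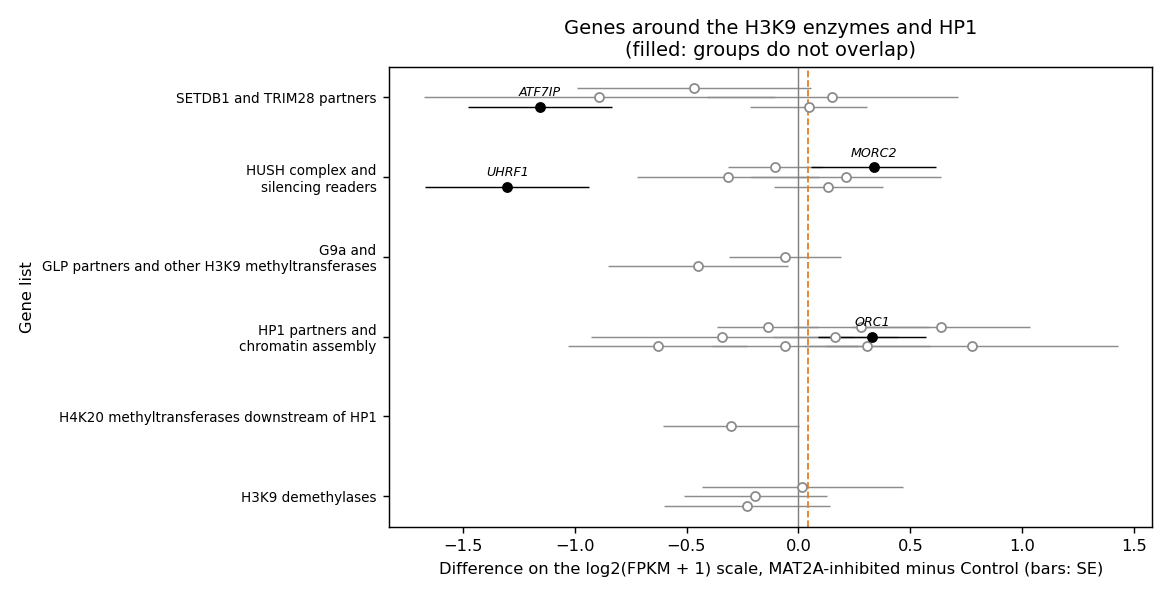
Log2 difference with its SE for the tested genes of the 6 lists that have no 0, MAT2A-inhibited minus Control, 1 band of points per list. Filled points are genes whose groups do not overlap: ATF7IP at -1.15 and UHRF1 at -1.30 on the left, MORC2 at 0.34 and ORC1 at 0.33 on the right. The dashed line is the median of all tested genes.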

How the data were processed

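RNA-seq was made from 3 MAT2A-inhibited and 3 Control bovine morulae. Per the submitters' processing notes, the tools were TopHat2 2.0.14 and Cufflinks 2.2.1, and the build was bosTau8. Their settings, the annotation and any scaling between libraries were not given in the sources used here. The authors deposited 1 gene table per library with FPKM and its bounds, per the file headers. The unannotated loci, 29294 to 54215 per table, differ between tables in number and position. Of 52 member values with status OK, 9 fell outside the interval given for them, and the intervals were therefore not taken as errors. FPKM of 1 symbol were summed; each member had 1 row per library and none was in a merged row. Of 13295 symbols with a row in every library 13185 were kept; 38 in merged loci and 72 with a status other than OK were left out.

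Depth was read off the intervals of short unannotated loci (lengths between 100 and 300 bases), whose bounds, times length and depth, are whole numbers of fragments: 99.6% to 99.8% of the values were whole within 0.05, and 48.5% to 49.1% at that depth divided by 2. The steps were whole with a span of end minus start, and in 86.1% to 89.6% of values with starts counted from 1, so starts count from 0 in the files and were raised by 1 here. Counts per gene were not recovered, and errors are the spread between embryos.

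The 7319 genes that reached 1 FPKM in 3 or more of the 6 libraries were tested two-sided by limma 3.58.1 (R 4.3.3) on log2(FPKM + 1), with its trend option and Benjamini-Hochberg adjustment over all of them and a threshold of 0.05. Exact two-sided permutation tests (scipy 1.17.1) compared mean FPKM of single genes; they are not adjusted. The fit was tested on simulated data. The highest percent of equal values between a pair of libraries was 0%. The members and lists were chosen with earlier results of these data known. Named are all members, the 3 genes of each list with the smallest p, MAT2A, and the 3 closest profiles to SETDB1 and TRIM28, of which 1 is not reported here; CERS2 and ORC1 were named after their values were seen. RefSeq names (ARS-UCD2.0) matched all 9 members. No sequences were used. Alternatives were other scalings, other filters, array weights, no trend, a pseudocount of 0.1 FPKM, a replicate block, 1 row per symbol, a lone 0 as missing, no X or Y genes, libraries left out and, added after the data were seen, the midpoint of the bounds.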

Additional observations from a re-analysis of the deposited data

How the results depend on the processing

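For all 20 alternatives 0 members passed. The log2 differences of SETDB1, SUV39H2 and CBX1 kept their sign in all 20, those of EHMT2 in the 15 that tested it, and that of CBX5 without its 0 in 18. With 1 library left out they ran between 0.99 and 1.86 for SETDB1, 0.08 and 0.61 for TRIM28, 0.28 and 1.18 for EHMT1, 0.18 and 0.41 for EHMT2, 0.32 and 0.65 for SUV39H2, 0.27 and 0.73 for CBX1, and 0.004 and 0.22 for CBX5. SETDB1 was at 0.82 with array weights and 1.20 with the midpoint of the bounds, and its adjusted p ran between 0.566 and 0.999. TRIM28 turned to -0.040 with array weights. Without the 2 libraries with Y-linked transcripts, which leaves 1 treated embryo assumed to vary like the Control embryos, the signs of EHMT1 (-0.25), ATF7IP2 (0.56), CDYL (0.44), KDM4A (0.32), KDM3A (-0.37) and MAT2A (0.26) turned. KDM3A was at -0.037 with median-of-ratios scaling and -0.041 with quantile normalization. Leaving out 1 library also turned CSNK2A1 (-0.19 to 0.15), KDM4A (-0.50 to 0.072), JMJD1C (-0.37 to 0.029), KDM3A (-0.31 to 0.47) and MAT2A (-0.31 to 0.077). ATF7IP kept its sign in all 20 and UHRF1 in the 19 that tested it; the midpoint of the bounds put UHRF1 at -0.66.

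The number of members with an unadjusted limma p below 0.05 was 0 with array weights and 0 to 2 with 1 library left out (1 in the main comparison). SETDB1 had a limma unadjusted p of 0.0605, 0.0658 and 0.0632 without MAT2A-inhibited 1, Control 2 and Control 3. That p was 0.0448, 0.0440 and 0.00106 without MAT2A-inhibited 2, MAT2A-inhibited 3 and Control 1. The member counted without Control 3 was EHMT1 (limma unadjusted p = 0.0496). Counted beside SETDB1 without MAT2A-inhibited 2 was SUV39H1 (limma unadjusted p = 0.0470), which has values at 0. The count of all tested genes that passed was 3, and 1 with no filter, 1 with a mean of at least 5 FPKM, 5 with array weights, 1 with the midpoint of the bounds, 0 without the libraries with Y-linked transcripts, and 0 to 8 with 1 library left out. The replicate number as a block left 1 call; same-numbered libraries deviated together with correlations of 0.05, 0.10 and 0.19, and not every library correlated best with its own number. The summed FPKM of SETDB1, SUV39H1 and SUV39H2, with SUV39H1 counted as listed, differed by 8.94 to 13.2 with 1 library left out. That of EHMT1 and EHMT2 differed by 1.38 to 4.70 with 1 library left out. With 3 embryos a group, the SE of 0.31 or more of every member with no 0 limits which differences were detectable.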

Other observations

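The make-up of the H3K9 trimethylating enzymes differed between embryos. The summed FPKM of SETDB1, SUV39H1 and SUV39H2 was 25.9, 17.3 and 22.3 in MAT2A-inhibited morulae, against 14.4, 8.31 and 9.86 in Control morulae, with SUV39H1 counted as listed. SETDB1 made up 52.6%, 64.8% and 51.4% of that sum in MAT2A-inhibited morulae, against 66.6%, 26.2% and 31.3% in Control morulae. The sum was above every Control value in each treated embryo, while the share was highest in Control 1. The sum holds SETDB1, which separated the groups by itself, while SUV39H2 overlapped between them, so it is no separate result. SUV39H1 was listed at 0 in MAT2A-inhibited 2, Control 1 and Control 3. If such a 0 is a failed estimate, the sums there are too low and the shares of SETDB1 too high. The summed FPKM of EHMT1 and EHMT2 was 4.03, 8.67 and 10.3 in MAT2A-inhibited morulae, against 2.57, 3.38 and 8.96 in Control morulae. These groups overlapped through Control 3.

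SETDB1 was at 28.8%, 27.5% and 32.7% of the TRIM28 level per embryo in MAT2A-inhibited morulae, against 18.4%, 7.68% and 12.6% in Control morulae. Relative to ATF7IP it stood at 1.20, 1.83 and 1.21 times in MAT2A-inhibited morulae, against 0.534, 0.0781 and 0.174 times in Control morulae. Neither ratio overlapped between the groups. For ATF7IP this follows from the values above, since SETDB1 was higher and ATF7IP lower in every treated embryo. The ratio to TRIM28 uses the same SETDB1 values, which already separated the groups, so it is no separate result. In Control 1 both SETDB1 and TRIM28 lay above their own deposited intervals. Both ratios were chosen after the values were seen and were not tested.

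Among HP1 partners, single libraries stood out. CHD4, the helicase of the NuRD complex, had values of 62.3, 11.1 and 10.8 FPKM in MAT2A-inhibited morulae, against 9.68, 8.84 and 16.2 FPKM in Control morulae. CHAF1A, the large CAF-1 subunit, had values of 11.5, 3.94 and 7.76 FPKM in MAT2A-inhibited morulae, against 23.3, 5.79 and 5.71 FPKM in Control morulae.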
